A study of Mus musculus with 8 samples.

Results

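The proteasome genes described here are 31 subunits of the constitutive proteasome and Nfe2l1, the transcription factor known as NRF1. They were chosen by gene symbol, as the subunits of the core particle and of the base and lid of the regulatory particle, by a rule that uses no measured value. All 32 were measured, among 21528 genes tested on the arrays. Of these 21528 entries, 12935 had a gene symbol and 8593 were known only by another sequence or probe name. Shares of all genes below are taken over both kinds. The cells were J774.1, a macrophage-like line of BALB/c mouse origin, and RNA was hybridised as Cy3-labelled cRNA to 8 one-colour Agilent arrays. The control group had 2 biological replicates, and no treatment time or vehicle is given for it in the sources used here. The other groups, with 2 biological replicates each, were treated for 6 h with isorhamnetin at 10 µM, tamarixetin at 10 µM or Torin1 at 1 µM. Isorhamnetin and tamarixetin are isomers of O-methylated quercetin, a plant flavonol, and differ in which neighbouring hydroxyl group of its B ring carries the methyl group. Torin1 is an inhibitor of the kinase mTOR.

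The proteasome degrades proteins marked with ubiquitin. Its core particle is a barrel of alpha rings, which gate entry, and beta rings, which hold the proteolytic sites. The regulatory particle has a base, with a ring of ATPases that unfold the substrate, and a lid that removes the ubiquitin chain. NRF1 is held at the endoplasmic reticulum, and after processing it drives transcription of proteasome subunit genes through antioxidant response elements in their promoters. In mouse cells, mTOR signalling has been linked to NRF1 and proteasome gene transcription. In macrophages the proteasome also makes peptides for presentation to T cells, and interferon adds alternative catalytic subunits that form the immunoproteasome.

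RefSeq promoter sequence (GRCm38.p6) was available for 26 of the 32 genes, and not for Psmb1, Psmb2, Psmb7, Psmc3, Psmd3 and Psmd7. The 250 bases before the gene start were searched on both strands for TGACNNNGC and TGAGNNNGC, cores of the antioxidant response element. Either core was present in 14 of 32 promoter entries of these genes (43.8%), against 23.0% of 32851 promoters of the same length over all genes. Several of the 14 are overlapping entries of Nfe2l1 that hold the same match. Counted by gene, 10 of 26 genes had a match (38.5%), against 25.7% of 27025 genes. The CCAAT box was found in 11 of 26 genes (42.3%), against 37.5% of all genes, and by entry in 43.8% and 33.8%, with several overlapping entries of Nfe2l1 among the former. The palindrome CACGTG was found in 3.85% of the members and 6.86% of all genes. Both antioxidant response element cores begin with TGA and end with GC, a promoter with both was counted once, and a match is a run of letters and not a measured binding site. The windows below are those of Psma4 and Psmd12, subunits with large differences under Torin1, of the catalytic subunits Psmb5 and Psmb6, of which the first was called under Torin1 and the second was not, and of Psmd8, the only member that was higher under Torin1. Capitals mark the matched core, and Psmd8 had no match. The windows were picked with the differences known and do not stand for all members. Psmd11 and Psmc4, with falls close to that of Psmd12, had no match either.
Psma4: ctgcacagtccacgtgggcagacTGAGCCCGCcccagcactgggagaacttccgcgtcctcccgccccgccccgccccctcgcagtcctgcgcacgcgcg
Psmd12: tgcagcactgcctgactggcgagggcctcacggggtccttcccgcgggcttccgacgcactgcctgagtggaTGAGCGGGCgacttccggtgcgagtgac
Psmb5: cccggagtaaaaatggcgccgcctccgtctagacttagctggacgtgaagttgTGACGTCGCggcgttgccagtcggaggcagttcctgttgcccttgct
Psmb6: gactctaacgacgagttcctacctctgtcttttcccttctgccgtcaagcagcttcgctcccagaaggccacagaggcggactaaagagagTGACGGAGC
Psmd8: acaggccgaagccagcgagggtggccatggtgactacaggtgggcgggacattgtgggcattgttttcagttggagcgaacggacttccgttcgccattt
These windows lie at chr9:54950709-54950808 on the plus strand (Psma4, bases 150 to 51 before the start), chr11:107479428-107479527 on the plus strand (Psmd12), chr14:54617996-54618095 on the minus strand (Psmb5), chr11:70525257-70525356 on the plus strand (Psmb6) and chr7:29180674-29180773 on the minus strand (Psmd8). The last 4 cover bases 100 to 1 before the start. The Psma4 window also holds cacgtg, the only such match among the members.

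Levels are given as log2 of the processed signal minus the 75th percentile of the array, so that 0 is the 75th percentile and 1 unit is a doubling. They are relative levels, and in such bulk samples fewer cells and less RNA per cell cannot be told apart. The 75th percentile was a signal of 318 to 403, and between 41.5% and 52.3% of probes were well above background on an array. All 32 members were well above background on all 8 arrays and 0 were saturated, so each has a measured level in each group. The SD over genes of the difference between replicate arrays was 0.26 to 0.44, and over the 32 members it was 0.05 to 0.08. All 8 macrophage markers were above background on every array, as were 3 of 5 T cell markers (Cd3e, Cd4 and Lck). The same held for 0 of 4 B cell markers, 0 of 4 fibroblast markers and 0 of 4 epithelial markers. Of the 4 neutrophil markers only 2 had a matched probe, and 1 of these, S100a8, was above background on every array. A marker was counted if any of its probes was above background on every array. Control and isorhamnetin shared 1 row of the slide, and tamarixetin shared the other with Torin1, so slide row and group cannot be told apart in comparisons between the rows. Within each row the groups held different columns, so slide column and group cannot be told apart there either.

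The median level of the 32 genes was 6.52 and 6.59 in control, 6.60 and 6.53 under isorhamnetin, 6.54 and 6.55 under tamarixetin and, under Torin1, 6.15 and 6.14. Both Torin1 arrays lay below the other 6, and the ranges of the other 3 groups overlapped.

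**Figure D1:**
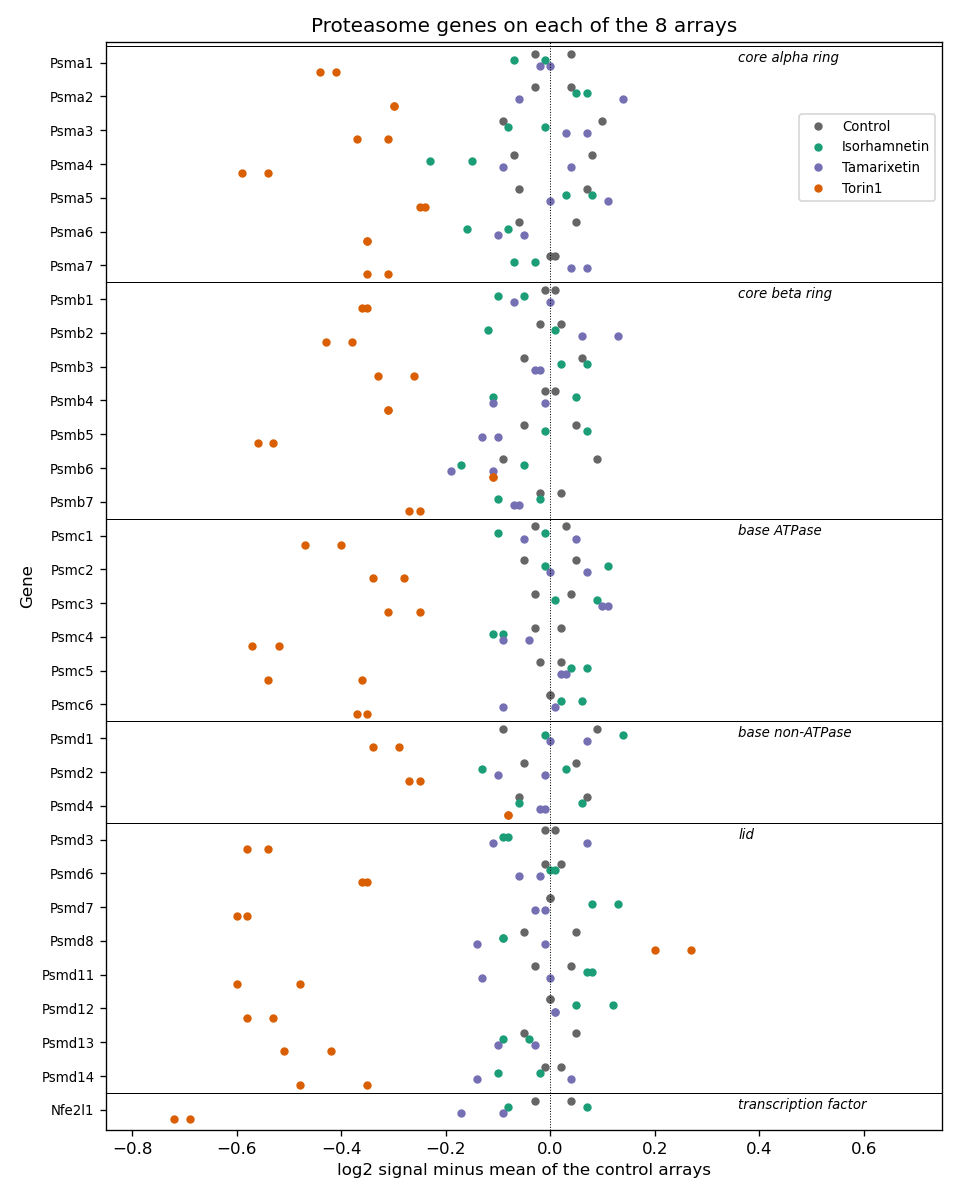
Level of each proteasome gene on each of the 8 arrays, as log2 signal minus the mean of the control arrays (horizontal axis), with genes by role in the complex (vertical axis) and 1 point per array. The Torin1 points lie to the left of both control points for every gene except Psmd8, where they lie to the right, while the flavonol points stay near the control points.

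Torin1 against control asks how the proteasome genes differed between cells treated for 6 h with this mTOR inhibitor and control cells. Of the 32 members, 29 were lower and 1 was higher by limma with Benjamini-Hochberg adjustment over all genes, at adjusted p < 0.05. Over all 21528 genes the same test called 30.1% lower and 19.3% higher. The median difference of the members was -0.36 on the log2 scale, or 78.1% of the control signal, against -0.10 over all genes tested. Because the members are abundant, they were also set beside the 4630 genes in the same range of levels, where the median was -0.22. The range runs from the lowest to the highest member, and levels were not matched within it. Of these 4630 genes, 2317 (50%) were lower and 559 (12.1%) were higher. On the Torin1 arrays 31 of the 32 genes lay below both control arrays, as 47.8% of all genes did.

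**Figure D2:**
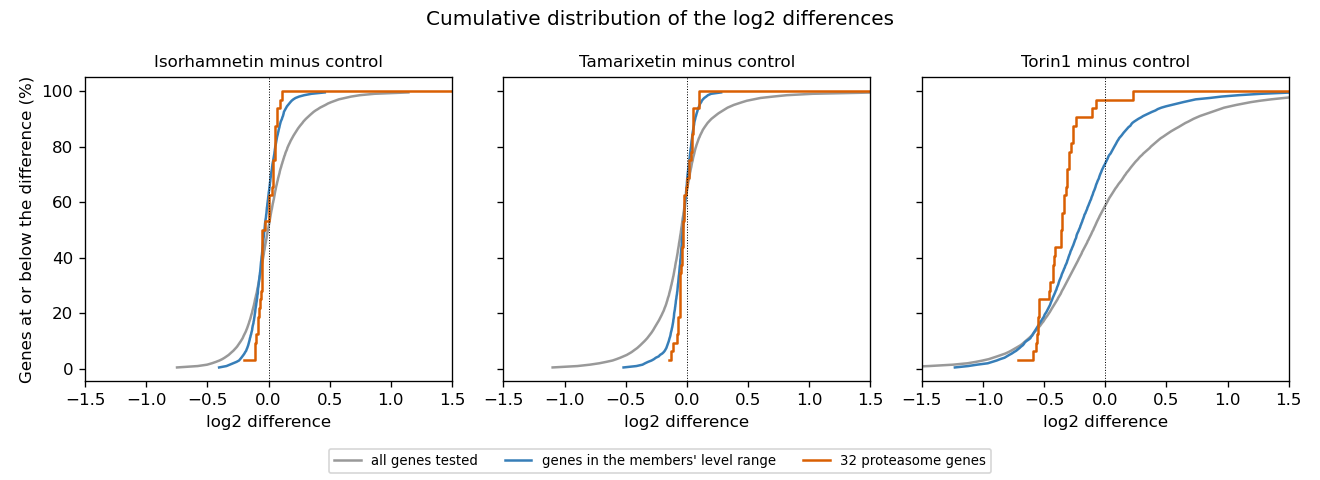
Cumulative distribution of the log2 differences from control (horizontal axis) as the percentage of genes at or below each difference (vertical axis), for all genes tested, for genes in the members' level range and for the 32 proteasome genes. With Torin1 the curve of the proteasome genes is displaced to the left and steep (median -0.36), and with the flavonols it rises close to 0.

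Nfe2l1 had the largest difference of the 32. Its level was 4.10 and 4.17 in control, 4.20 and 4.05 under isorhamnetin, 4.04 and 3.96 under tamarixetin and, under Torin1, 3.44 and 3.41. The Torin1 arrays stood clearly below the other 6. Nfe2l1 fell by 0.71 ± 0.07 (SE) with Torin1, a 1.63-fold decrease (limma adjusted p = 0.000976). A dimmer second probe for Nfe2l1 differed by -0.14 ± 0.25 (SE) and was not called (limma adjusted p = 0.66), so the fall rests on the brighter probe.

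The alpha ring, whose subunits frame the gate of the core, was lower in 7 of 7 genes, with a median difference of -0.34. Psma4 moved most among them. Its level was 7.90 and 8.05 in control, 7.82 and 7.74 under isorhamnetin, 8.01 and 7.88 under tamarixetin and, under Torin1, 7.43 and 7.38. Torin1 was lowest without overlap, and Psma4 fell by 0.57 ± 0.08 (SE), or 1.48-fold (limma adjusted p = 0.00279). The other 6 fell by between 0.24 (Psma5) and 0.43 (Psma1).

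In the beta ring, 6 of 7 genes were lower, and the catalytic subunits differed from each other in their values. Psmb5, which carries the chymotrypsin-like activity, read 5.77 and 5.87 in control, 5.89 and 5.81 under isorhamnetin, 5.69 and 5.72 under tamarixetin and, under Torin1, 5.26 and 5.29. It fell by 0.54 ± 0.06 (SE), or 1.45-fold (limma adjusted p = 0.00134). Torin1 was below all other arrays by a margin larger than the spread among them. Psmb7, the trypsin-like subunit, read 5.12 and 5.08 in control, 5.08 and 5.0 under isorhamnetin, 5.03 and 5.04 under tamarixetin and, under Torin1, 4.83 and 4.85. It fell by 0.26 ± 0.05 (SE), or 1.2-fold (limma adjusted p = 0.0106). Psmb6, the caspase-like subunit, was not called. Its level was 7.37 and 7.55 in control, 7.41 and 7.29 under isorhamnetin, 7.27 and 7.35 under tamarixetin and, under Torin1, 7.35 on both arrays, so that the Torin1 values lay among those of the flavonols. Its difference from control was -0.11 ± 0.08 (SE), with a 95% interval from -0.32 to 0.10 (limma adjusted p = 0.313). Whether Psmb5 and Psmb6 responded differently was not tested. Of the structural beta subunits, Psmb2 fell by 0.41, Psmb1 by 0.36, Psmb4 by 0.31 and Psmb3 by 0.30.

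The base ATPases, which unfold and translocate substrates, were lower in 6 of 6 genes, with a median of -0.40. Psmc4 fell by 0.54 ± 0.05 (SE), or 1.45-fold (limma adjusted p = 0.000875), and the other 5 by between 0.28 (Psmc3) and 0.45 (Psmc5). Of the non-ATPase members of the base, the scaffold subunits Psmd1 and Psmd2 fell by 0.32 and 0.26. Psmd4, a ubiquitin receptor, read 7.23 and 7.36 in control and 7.21 on both Torin1 arrays, a difference of -0.08 with a 95% interval from -0.26 to 0.09 (limma adjusted p = 0.366).

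The lid had the lowest median of the structural groups, -0.50, with 7 of 8 genes lower and Psmd8 higher. Psmd7, which pairs with the deubiquitinase Psmd14, read 4.69 on both arrays in control, 4.82 and 4.77 under isorhamnetin, 4.68 and 4.66 under tamarixetin and, under Torin1, 4.09 and 4.11. It fell by 0.59 ± 0.05 (SE), or 1.5-fold (limma adjusted p = 0.000566), the largest fall of the 31 subunits. Torin1 stood apart from the other groups, which lay close together. Psmd3, a subunit with a PCI domain, read 6.74 and 6.76 in control, 6.66 and 6.67 under isorhamnetin, 6.82 and 6.64 under tamarixetin and, under Torin1, 6.17 and 6.21, and it fell by 0.56 ± 0.07 (SE, limma adjusted p = 0.00201). Psmd12, another PCI-domain subunit, read 6.66 on both arrays in control, 6.78 and 6.71 under isorhamnetin, 6.67 on both tamarixetin arrays and, under Torin1, 6.13 and 6.08, and it fell by 0.55 ± 0.05 (SE, limma adjusted p = 0.000804). In both genes the Torin1 arrays were the lowest without overlap. Psmd11, which braces the lid against the base and the core, read 3.79 and 3.72 in control, 3.82 and 3.83 under isorhamnetin, 3.75 and 3.62 under tamarixetin and, under Torin1, 3.15 and 3.27. It fell by 0.55 ± 0.07 (SE, limma adjusted p = 0.00226), again with Torin1 lowest. Psmd13, Psmd14 and Psmd6 fell by 0.46, 0.42 and 0.35.

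Psmd8, a lid subunit known in yeast to join last in lid assembly, went the other way. Its level was 4.99 and 4.89 in control, 4.85 on both isorhamnetin arrays, 4.93 and 4.80 under tamarixetin and, under Torin1, 5.14 and 5.21. The Torin1 arrays were the highest of the 8. Psmd8 rose by 0.23 ± 0.07 (SE), or 1.18-fold (limma adjusted p = 0.0398). The call was close to the threshold. It was lost with scaling to the median of each array, where the difference was 0.05 (limma adjusted p = 0.77), without the filter on dim probes (limma adjusted p = 0.159), with a fit of only the groups compared (limma adjusted p = 0.0624), with a replicate block (limma adjusted p = 0.0626) and when any 1 of the control, isorhamnetin or Torin1 arrays was left out.

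The falls were of moderate size, and the number of genes called changed with the settings, for a cause that was not tested. Without the filter on dim probes 17 of the 32 genes were called, where 7228 of 45380 entries were. With the filter, 10643 of 21528 entries were called. The number of members called also changed when single arrays were left out. In all 17 settings compared 16 genes were called lower, among them Nfe2l1, Psma4, Psmb5, Psmd3, Psmd7, Psmd11 and Psmd12. The matching share over all genes is not given for that count. The 17 settings leave out the use of the second brightest probe, with which Nfe2l1 was not called. Quantile normalization brought the median of the members to -0.18 and left 20 lower and 1 higher, while Psmb6 and Psmd4 then had differences of 0.01 and 0.06.

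Of the 32 genes, 16 had further probes. With Torin1 all 21 of these other probes had differences below 0, from -0.84 to -0.12, and 18 were called lower by limma. The matching share over all probes is not given here, and in the test by gene 30.1% of all genes were lower. These probes were read on the same arrays, so they are not independent of the brightest probes. For Psmb6 and Psmd4 the other probes differed by -0.12 and -0.15, so both probes of each gene gave small values.

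**Figure D3:**
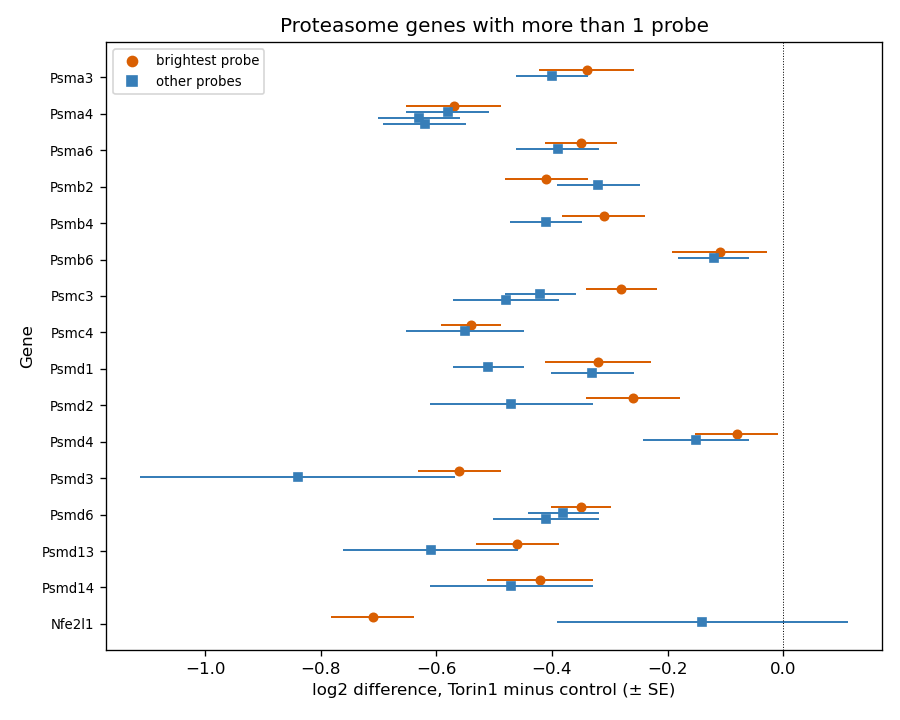
Difference between Torin1 and control, on the log2 scale with its SE (horizontal axis), for the brightest probe and the other probes of each proteasome gene with more than 1 probe (vertical axis). All other probes lie below 0, between -0.84 and -0.12, and the Nfe2l1 probes are the farthest apart (-0.71 and -0.14).

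The difference under Torin1 was set beside the promoter motifs of the 25 subunits with promoter sequence. The 9 with an antioxidant response element core had a median of -0.35, and 8 of them were called lower. The 16 without it had a median of -0.34, and 14 of them were called lower. Among the windows printed above, those of Psmb5 and Psmb6 both hold TGACNNNGC, with differences of -0.54 and -0.11. Subunits with a CCAAT box (10) had a median of -0.34 and those without (15) a median of -0.36.

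Genes around the proteasome were taken from lists of 54 genes, of which 51 were measured. The immunoproteasome subunits, which replace the constitutive catalytic subunits, were lower in 3 of 3, where 30.1% of all genes were lower. Psmb8 read 4.12 and 4.15 in control and 3.22 and 3.24 with Torin1, and it fell by 0.91 ± 0.07 (SE), or 1.88-fold (limma adjusted p = 0.00049). Psmb9 read 2.27 and 2.22 in control and 1.41 on both Torin1 arrays, a fall of 0.83 ± 0.06 (SE, limma adjusted p = 0.00029). Psmb10 read 5.59 and 5.63 in control and 4.89 and 4.88 with Torin1, a fall of 0.72 ± 0.07 (SE, limma adjusted p = 0.000804). For each of the 3, the Torin1 arrays lay far below control, and the fall was numerically larger than that of any constitutive subunit.

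Of 8 assembly chaperones measured, 6 were lower and 1 was higher. For this list and those that follow, 30.1% of all genes were lower and 19.3% higher. Psmg3 fell by 0.54, Psmd9 by 0.43 and Psmd5 by 0.40, while Psmd10, also called gankyrin, rose by 0.20 ± 0.06 (SE, limma adjusted p = 0.0369). Pomp, which assists formation of the core, fell by 0.25 ± 0.08 (SE, limma adjusted p = 0.0462), a call kept in 6 of 17 settings. Psmd10 was also called in 6 of 17 settings, and its difference was 0.02 with scaling to the median. Among 4 activators and inhibitors, Psme1 fell by 0.45 and Psme4 by 0.34. Of 7 further subunits and associated enzymes, 5 were lower, among them the deubiquitinase Usp14 (-0.43), the thioredoxin-like Txnl1 (-0.38) and the ubiquitin receptor Adrm1 (-0.37). Psma8, the testis form of an alpha subunit, fell by 0.49, but its close paralog Psma7 may share signal with its probe, so this value is uncertain.

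Of the list of NRF1 processing factors, partners and relatives, 4 of 13 were higher and 4 lower, shares near the 19.3% and 30.1% of all genes. The small MAF partner Maff rose by 0.87 ± 0.07 (SE), the repressor Bach1 by 0.59 ± 0.11 (SE) and the NRF1 relative Nfe2l2 by 0.41 ± 0.07 (SE). Keap1, which holds NRF2 in check, fell by 0.67 ± 0.05 (SE). Sel1l, a part of the machinery that retrieves proteins from the endoplasmic reticulum, fell by 0.44, and Vcp, the ATPase that extracts them, by 0.41. Of 9 ubiquitin shuttles and VCP cofactors, 5 were lower and 2 were higher, the latter a share near the 19.3% of all genes. Zfand2a read 2.46 and 2.56 in control and 4.09 and 4.02 with Torin1, and it rose by 1.54 ± 0.13 (SE), or 2.91-fold (limma adjusted p = 0.000564). Zfand5 read 2.56 and 2.62 in control and 3.72 and 3.73 with Torin1, and it rose by 1.14 ± 0.05 (SE), or 2.20-fold (limma adjusted p = 0.000112). Both encode zinc finger proteins that bind the proteasome, and their Torin1 arrays were the highest of the 8. Ubqln1 fell by 0.66 and Rad23b by 0.50, and both are shuttles that carry ubiquitinated proteins to the proteasome. Among 6 ubiquitin genes and activating enzymes, Uba1 fell by 0.39 and Uba6 rose by 0.18, the latter with a difference of -0.01 under scaling to the median.

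**Figure D4:**
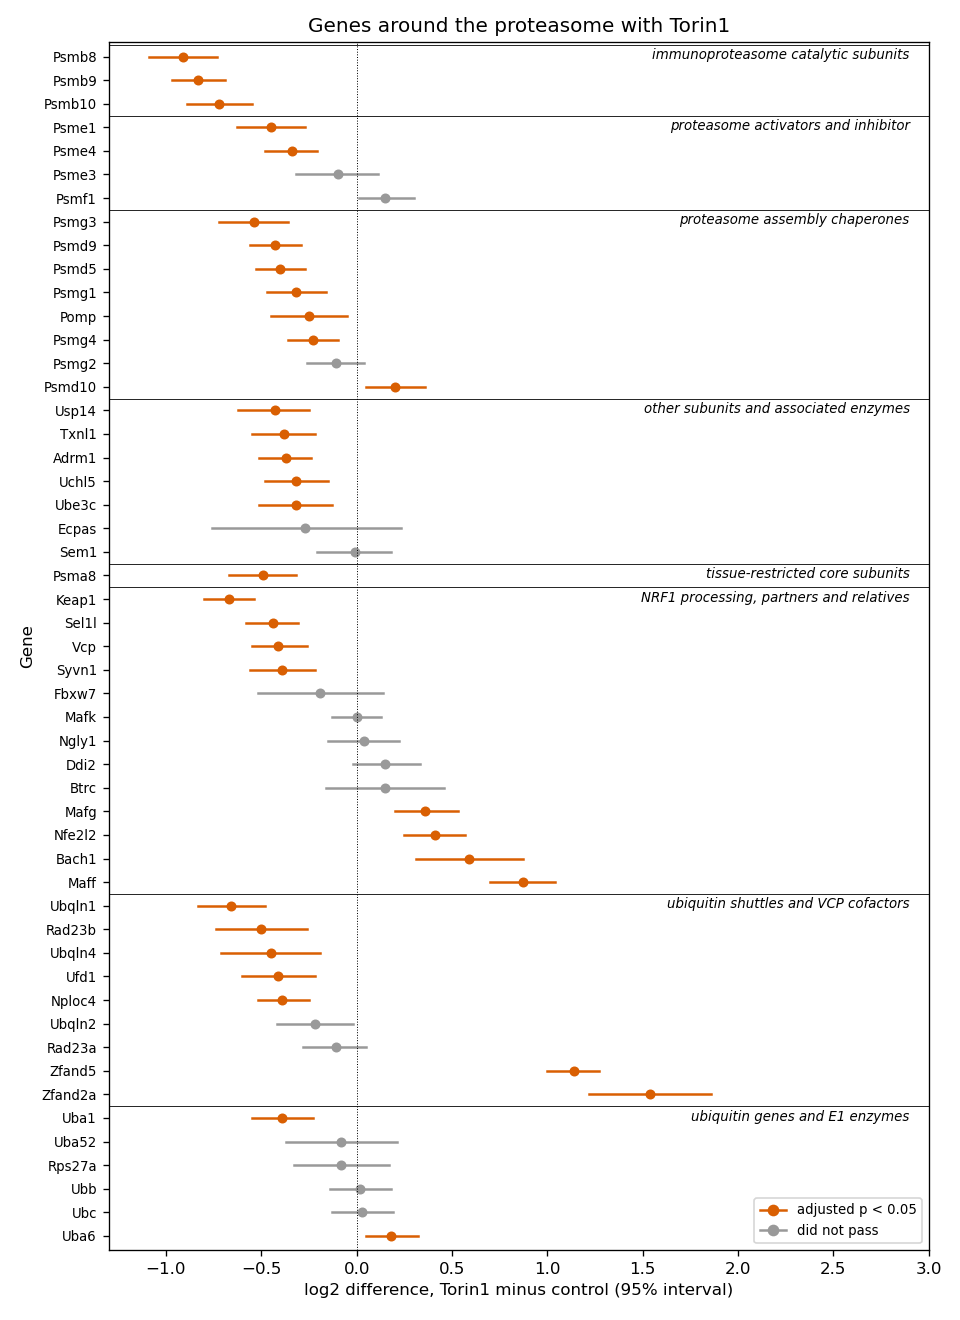
Difference between Torin1 and control on the log2 scale with its 95% interval (horizontal axis) for 51 genes around the proteasome (vertical axis), grouped by list and coloured by whether the adjusted p was below 0.05. The immunoproteasome genes lie between -0.91 and -0.72, while Zfand5 and Zfand2a lie at 1.14 and 1.54.

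Some markers of other cells also moved with Torin1. Of the T cell list, 3 of 5 genes were measured, Cd3g and Cd8a were not above background on any array, and the summed level of the others, in units of the 75th percentile, was 7.0 to 7.65 in control and 4.31 to 4.79 with Torin1. Cd4 fell by 0.79 and Lck by 0.60, and Cd3e differed by -0.50 without a call. A much dimmer second probe was well above background on 1 of 8 arrays for Cd4, 4 for Lck and 7 for Cd3e. The levels and differences of these genes rest on the brighter probe. Of the B cell list, 2 of 4 genes were measured and 0 were called. S100a8 of the neutrophil list, at 0.784 to 0.805 in control, reached 0.931 to 0.982, and Dcn of the fibroblast list, close to background, went from 0.0536 to 0.0822 in control to 0.148 to 0.169. The summed level of the 8 macrophage markers, carried mostly by the brightest of them, was 586 to 594 in control and 565 to 583 with Torin1. Of the 8, 3 were higher and 2 were lower, where 19.3% of all genes were higher and 30.1% lower. Adgre1 read 1.27 and 1.54 in control and 2.92 and 2.74 with Torin1, a rise of 1.43, and Cd68 and Ptprc rose by 0.35 and 0.25. The dimmer probe of Adgre1 was not well above background on any array. Fcgr1 read 2.39 and 2.22 in control and -0.07 and 0.21 with Torin1, and it fell by 2.23, while Spi1 fell by 0.41. The part of these markers in the proteasome result was not tested.

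Torin1 and tamarixetin shared a slide row, so this comparison lies within that row, though between different columns of it. With Torin1, 28 of the 32 genes were lower than with tamarixetin and 1 was higher, by limma at adjusted p < 0.05, where 24.1% of all genes were lower and 19.1% higher. The median of the members was -0.37, or 77.1% of the tamarixetin signal, against -0.03 over all genes and -0.18 over the genes in the same range of levels. Of the genes in that range, 45.2% were lower and 13.7% higher than with tamarixetin. The difference was -0.58 ± 0.07 (SE) for Nfe2l1, -0.57 ± 0.05 (SE) for Psmd12 and -0.56 ± 0.05 (SE) for Psmd7, with limma adjusted p of 0.00203, 0.00083 and 0.00069. The dimmer probe of Nfe2l1 differed by -0.01 and was not called. The differences of Psma4 and Psmd3 were both -0.54, and that of Psmb2 was -0.50. Psmb2 read 3.41 and 3.34 with tamarixetin and 2.85 and 2.9 with Torin1, without overlap. Psmd8 was higher by 0.31 ± 0.07 (SE, limma adjusted p = 0.0175). Psmd2, Psmd4 and Psmb6, at -0.20, -0.07 and 0.04, were not called. The immunoproteasome subunits were lower in 3 of 3, at -0.80 (Psmb10), -0.78 (Psmb8) and -0.69 (Psmb9). Without the filter on dim probes 15 members were called, where 5587 of 45380 entries were. Without Torin1 replicate 2 the median of the members was -0.34, and fewer members were called. This comparison shares its Torin1 arrays with that against control, and the counts are not independent.

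The comparison of isorhamnetin with control addressed whether this flavonol changed the proteasome genes. By limma with Benjamini-Hochberg adjustment 0 of the 32 genes were called, and 0 had an unadjusted p under 0.05, where 0.543% of all genes were called and 15.4% had an unadjusted p under 0.05. The median difference was -0.04, against 0 over all genes, and the single genes ran from -0.20 to 0.11. Quantile normalization turned the sign of that median, to 0.02. The 95% intervals of the 32 genes lay between -0.39 and 0.28 and all held 0.

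Psma4 had the smallest p, with 7.82 and 7.74 on the isorhamnetin arrays, both below the control arrays, and a difference of -0.20 ± 0.08 (SE, limma adjusted p = 0.332). For Psmd7 both isorhamnetin arrays were above control, and the difference was 0.11 ± 0.05 (SE, limma adjusted p = 0.37). Psma6 read 7.29 and 7.21 against 7.31 and 7.42 in control, a difference of -0.11. Psmc4 read 4.62 and 4.60 against 4.68 and 4.73, a difference of -0.10. The differences of Nfe2l1, Psmb5, Psmb6 and Psmb7 were 0.00, 0.03, -0.11 and -0.05, and none was called. Among the 51 genes around the proteasome, Psmd5, an assembly chaperone of the base, was the only call. It read 2.78 and 2.83 in control, 3.21 and 3.26 under isorhamnetin, 2.89 and 2.85 under tamarixetin and, under Torin1, 2.40 and 2.41. The isorhamnetin arrays were the highest of the 8 and the Torin1 arrays the lowest. Psmd5 rose by 0.43 ± 0.05 (SE), or 1.35-fold, with isorhamnetin (limma adjusted p = 0.0464). The call was lost when any 1 of the 8 arrays was left out, with limma adjusted p from 0.0728 to 0.193, and without the filter on dim probes (limma adjusted p = 0.224), with the replicate block (limma adjusted p = 0.135), with median scaling (limma adjusted p = 0.271) and in the fit of only the groups compared (limma adjusted p = 0.157).

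Tamarixetin against control gave 0 calls among the 32 genes by limma, and 0 with an unadjusted p under 0.05, where 0.079% of all genes were called and 14.3% had an unadjusted p under 0.05. The median was -0.03, against -0.05 over all genes, with single genes from -0.15 to 0.10 and 95% intervals between -0.35 and 0.26, all of which held 0. Quantile normalization turned the sign of the median, to 0.03, as did normexp background correction, to 0.02. The smallest p was that of Psmb5, whose tamarixetin arrays were both below control, with a difference of -0.11 ± 0.06 (SE, limma adjusted p = 0.447). Psmb6 and Nfe2l1 followed, with differences of -0.15 and -0.13, and their tamarixetin arrays were also below both control arrays. Psmc3 read 7.71 and 7.70 against 7.57 and 7.64 in control, a difference of 0.10, but its second brightest probe gave -0.16. None of the 51 genes around the proteasome was called by limma, and 5 had an unadjusted p under 0.05.

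The isomers were compared directly, at the same dose and time. By limma 0 of the 32 genes were called between isorhamnetin and tamarixetin, where 0.831% of all genes were called, and 1 had an unadjusted p under 0.05, as 13.3% of all genes did. That gene was Psmd7, with 4.82 and 4.77 against 4.68 and 4.66, a difference of 0.13 ± 0.05 (SE, unadjusted p = 0.0407 and adjusted p = 0.35 by limma). Psmb5 was at 5.89 and 5.81 with isorhamnetin and 5.69 and 5.72 with tamarixetin, a difference of 0.14 ± 0.06 (SE, limma adjusted p = 0.401). The isorhamnetin arrays were above the tamarixetin arrays in both genes. Psmb2 had a difference of -0.15, with 3.29 and 3.16 against 3.41 and 3.34, and Psma7 one of -0.10, with 7.52 and 7.48 against 7.62 and 7.59. In these the isorhamnetin arrays were the lower. The median difference between the isomers was 0.01, the single genes ran from -0.17 to 0.14, and the 95% intervals lay between -0.36 and 0.32. The intervals of 31 of the 32 genes held 0, Psmd7 being the exception. Psmd5 was higher with isorhamnetin by 0.37, with a limma adjusted p of 0.0556.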

How the data were processed

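Per the file headers, the 8 arrays were read in 1 channel with Agilent Feature Extraction 10.7.1.1 (also in the submitters' processing notes), on 1 slide in 1 scan, and the deposited processed signal is an intensity after background subtraction. The table deposited by the authors holds log2 values, which equalled log2 processed signal minus the array's 75th percentile and the probe's median within 0.01 for 99.9% of 56282 probes. Of 56605 probes, 323 with outlier spots were dropped. Kept probes (27562) were well above background on both replicates of some group, and the brightest probe of a gene was used. Symbols came from RefSeq accessions (GRCm38.p6, names and promoters), matched by 32836 probes. Psme2 and Paaf1 were not analysed here, and Psmb11 did not pass the filter. The array header names mm9.

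Levels were log2 signal minus the 75th percentile. The test was limma 3.58.1 (R 4.3.3), with 1 mean per group, all 8 arrays in 1 fit with 4 residual degrees of freedom and two-sided p adjusted by Benjamini-Hochberg over 21528 genes. Intervals are 95% intervals of the moderated fit, and the number of arrays limits the precision. Only the limma fit, for Torin1 against control, was tried on simulated normalized values with known differences added. The earlier steps, such as the filter, scaling and choice of probe, were not tested in this way. Values on the arrays compared are printed for Nfe2l1, Psmb5, Psmb6, Psmb7 and, per comparison, up to 6 called members in each direction with the largest difference, or the 4 with the smallest p where none was called. Per list around the proteasome up to 3 called genes are named, and Psmb8, Psmb9, Psmb10 and Pomp always. Other members and genes named, such as Mafg and Psmf1, were chosen after their values were seen. The rule for the members uses no measured value, but members and lists were chosen with earlier results of these data known.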

Additional observations from a re-analysis of the deposited data

How the results depend on the processing

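Settings tried were no filter on dim probes, normexp background correction with an offset of 50, quantile normalization, median scaling, the mean of a gene's probes, the authors' deposited values, a replicate block, a fit of only the groups compared and leaving out each array in turn (leave-one-out). The second brightest probe of the members and the comparison with genes of the same range of levels were chosen after seeing the data. There was 1 slide and 1 scan, so no block was used for either. The cause was not tested for any change below.

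Of the 32 members, 30 were called between Torin1 and control, 17 with no filter and 19 to 30 in leave-one-out. Between Torin1 and tamarixetin 29 were called, 15 with no filter and 18 to 29 in leave-one-out. Between Torin1 and control the median of -0.36 became -0.18 with quantile normalization, -0.54 with median scaling (where the median of all genes went from -0.10 to -0.28) and -0.40 with the second brightest probe, and it was -0.40 to -0.35 in leave-one-out. Against tamarixetin it was -0.26 with quantile normalization and -0.48 with median scaling. For isorhamnetin against control the median was 0.02 with quantile normalization, -0.09 with median scaling and -0.08 to 0.02 in leave-one-out. For tamarixetin against control it was 0.02 with normexp, 0.03 with quantile normalization and -0.10 with median scaling. Between the isomers it was -0.04 to 0.04 in leave-one-out.

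Replicate numbers did not pair the arrays: deviations from the group means correlated at -0.13 to 0.08 between groups. With a replicate block 26 members were called lower and 0 higher between Torin1 and control, and 26 lower and 1 higher against tamarixetin.

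Over 17 settings (all but the second brightest probe) the difference took both signs in 16 of the 32 members for isorhamnetin against control, 23 for tamarixetin, 16 between the isomers, 2 for Torin1 against control and 1 against tamarixetin, and 0 of these were called. Among the genes named, sign changes with isorhamnetin against control were Pomp (0.01 with quantile normalization, -0.15 to 0.02 in leave-one-out), Psmb5 (-0.03 with median scaling, -0.02 to 0.08 in leave-one-out), Psmc4 (0.05 with the second brightest probe) and Psmb10 (-0.14 to 0.01 in leave-one-out). They were Psmc3 with tamarixetin (-0.06 with the mean of probes, -0.16 with the second brightest probe) and, with Torin1, Psmb6 (0.01) and Psmd4 (0.06) under quantile normalization and Uba6 (-0.01) under median scaling. Between the isomers, sign changes included Psmb6 (-0.04 with the second brightest probe, -0.02 to 0.10 in leave-one-out), Psmb7 (-0.03 to 0.05 in leave-one-out) and Psmb8 (-0.14 to 0.05). Between Torin1 and tamarixetin they were Psmb6 (-0.07 with median scaling, -0.04 with the second brightest probe) and Psmf1 (-0.09 with the mean of probes).

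For isorhamnetin against control 117 of all genes were called, 6 with no filter, 13 with median scaling, 4 with the replicate block, 0 by limma in the fit of only the groups compared (3123 at an unadjusted p under 0.05) and 5 to 75 in leave-one-out. For tamarixetin 17 were called, 12524 with no filter (11866 of them dim probes that the filter drops), 8 with normexp, 11 with the block and 0 to 146 in leave-one-out. Between the isomers 179 were called, 14019 with no filter (13206 of them such probes), 100 with normexp, 119 with median scaling, 43 with the block, 1 in the fit of only these groups and 40 to 271 in leave-one-out. Between Torin1 and tamarixetin 9291 were called, and 5587 with no filter. Median scaling moved the share of higher calls from 39.0% to 22.0% for Torin1 against control and from 44.2% to 32.6% against tamarixetin.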

Other observations

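Mafg encodes a small MAF protein, a partner of NRF1 at antioxidant response elements. It read 5.47 and 5.60 in control, 5.87 and 5.93 under isorhamnetin, 5.50 and 5.56 under tamarixetin and, under Torin1, 5.90 and 5.89. The isorhamnetin and Torin1 arrays were above all control and tamarixetin arrays. Mafg rose by 0.36 ± 0.07 (SE) with Torin1 (limma adjusted p = 0.00669), and its difference with isorhamnetin was 0.37 ± 0.07 (SE), which was not called (limma adjusted p = 0.093).

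Psmf1, an inhibitor of the proteasome, had probes that disagreed. With Torin1 against control the brighter probe differed by 0.15 ± 0.06 (SE) and the dimmer one by -0.46 ± 0.14 (SE), with limma adjusted p of 0.0859 and 0.0384 over all probes. Against tamarixetin the values were 0.23 ± 0.06 (SE) and -0.42 ± 0.14 (SE), so no direction can be given for this gene.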
